A study of Homo sapiens with 13 samples.

Results

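The genes described here were 53 factors that build ribosomes in the nucleolus, chosen by gene symbol from 60591 genes in a table of RNA-seq read counts. All 53 were found and all 53 passed the filter on low counts, among the 19514 genes tested. The cells were TE11, a line labelled as human esophageal squamous cell carcinoma. Every culture was exposed for 48 h. The groups were 10 µM chloroquine (3 libraries), 25 µM 5-fluorouracil (5-FU, 3 libraries), both drugs at those doses (the combination, 3 libraries) and 0.1% DMSO as vehicle (4 libraries). No DMSO content was recorded here for the drug-treated cultures, and its part in the results was not tested. Nothing in the labels says that replicates were separate cultures. The p-values therefore reflect only how these libraries varied, which may be technical. TE11 was the only line used.

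Ribosomes are assembled on a long precursor rRNA that RNA polymerase I transcribes in the nucleolus. Small nucleolar ribonucleoproteins (snoRNPs) modify that precursor, the small subunit processome folds and cuts its 18S part, and other factors assemble and export the 40S and 60S subunits. 5-FU is an antimetabolite whose products enter RNA and DNA and inhibit thymidylate synthase, and it is known to disturb rRNA processing. Chloroquine gathers in lysosomes, raises their pH and so blocks autophagic degradation.

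Library totals ran between 17834539 and 23679833 counts. Values are given in CPM (counts scaled to a common library total) after TMM scaling, which corrects for RNA composition, and are not divided by transcript length, so levels of different genes are not compared. The TMM factors differed between all groups without overlap. They were 0.925 to 0.947 in vehicle and 0.993 to 0.999 with chloroquine. With 5-FU they were 1.060 to 1.076 and with the combination 1.024 to 1.045. Results with scaling by library size alone are given at the end. In 5 libraries (chloroquine 1 and 2, 5-FU 2, combination 2 and vehicle 4) COL1A2, a fibroblast collagen gene, had between 153 and 741 counts, against 1 to 7 counts in the other 8. The 5 libraries were not alike in other markers. In vehicle 4, chloroquine 1 and chloroquine 2, COL3A1 had 659, 524 and 366 counts, HBB 203, 136 and 88, and LYZ 108, 92 and 74. In 5-FU 2 and combination 2, COL3A1 had 58 and 26 counts, HBB 0 and 0, and LYZ 8 and 1. COL3A1 had 16 to 50 counts in the other 8. Over the 9 fibroblast markers listed, the summed count was 688 to 2525 in those 5 libraries and 205 to 622 in the 8, and 2 of the 9 had at most 10 counts in every library. Of 12 squamous epithelial markers, 9 had at most 10 counts in all 13 libraries, and KRT4 and SPRR1B were at 0. Of the rest, SOX2 had 192 to 353 counts and KRT14 0 to 12. S100A2 had 1 to 2 counts in vehicle and 15 to 23 with the combination. The summed count of 5 simple epithelial markers was 875 to 1168 with chloroquine, 1486 to 1743 with 5-FU and 1789 to 1842 with the combination, against 907 to 1084 in vehicle. KRT18 alone held 747 to 1361 of these counts, and KRT19 at most 4. Log2 fold changes with chloroquine, 5-FU and both were 0.08, 2.15 and 2.41 for KRT8 and 0.01, 0.32 and 0.43 for KRT18. They were 0.09, 0.51 and 0.64 for EPCAM, but -0.67, -0.43 and -0.54 for CDH1. The part of these other transcripts in the results was not tested, and the counts over all 53 genes are also given without the 5 libraries.

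Most ribosome assembly factors had lower transcript levels after each treatment than in vehicle. A gene was said to have risen or fallen when its adjusted p in edgeR's quasi-likelihood test was under 0.05. With chloroquine, 48 of the 53 fell and 0 rose, where 19.1% of all genes tested fell and 20.3% rose. The median log2 fold change of the 53 was -0.37, against 0.02 over all genes. With 5-FU, 45 fell and 1 rose, where 29.5% of all genes fell and 30.8% rose, and the median was -0.53, against 0.01 over all genes. With the combination, 45 fell and 1 rose, where 27.2% of all genes fell and 28.1% rose, and the median was -0.46, against 0.01 over all genes. Without the 5 libraries that carry COL1A2, chloroquine gave 38 fallen and 0 risen, where 11.2% of all genes fell and 10.9% rose. In that fit 5-FU gave 45 fallen and 1 risen, where 5772 of the 19886 genes then tested fell and 5944 rose, and the combination gave 45 fallen and 0 risen (26.0% and 26.4% of all genes). It leaves 1 chloroquine library, whose spread was assumed to be that of the other groups.

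In 40 of the 53 genes the fall passed the test in all 3 treatments, against 8.71% of all genes. In 38 of the 53 every treated library lay below every vehicle library, against 9.98% of all genes, and 36 genes met both conditions. The 3 treatments were set against the same 4 vehicle libraries. Only PPAN and SURF6 passed in none of the 3, and NOP2 (with 5-FU) and GNL2 (with the combination) were the only members that rose in any of them. Together the 53 genes took 1.07%, 1.06% and 1.13% of all counts in the chloroquine libraries, 0.922%, 0.957% and 0.940% in the 5-FU libraries and 0.982%, 0.982% and 0.996% in the combination libraries. In the vehicle libraries they took 1.26%, 1.30%, 1.26% and 1.28%. The share was thus below every vehicle library in each treated library, lowest with 5-FU, and in the combination it lay between the 2 single drugs with no overlap with either. That order of 5-FU and combination rested on NCL and NPM1. Without these 2 genes the share was 0.720%, 0.725% and 0.717% with 5-FU. It was 0.725%, 0.721% and 0.737% with the combination, so the 2 groups overlapped. In these bulk samples less RNA per cell and fewer cells that carry it cannot be told apart. The heat map of members by library shows every gene in every library.

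**Figure D1:**
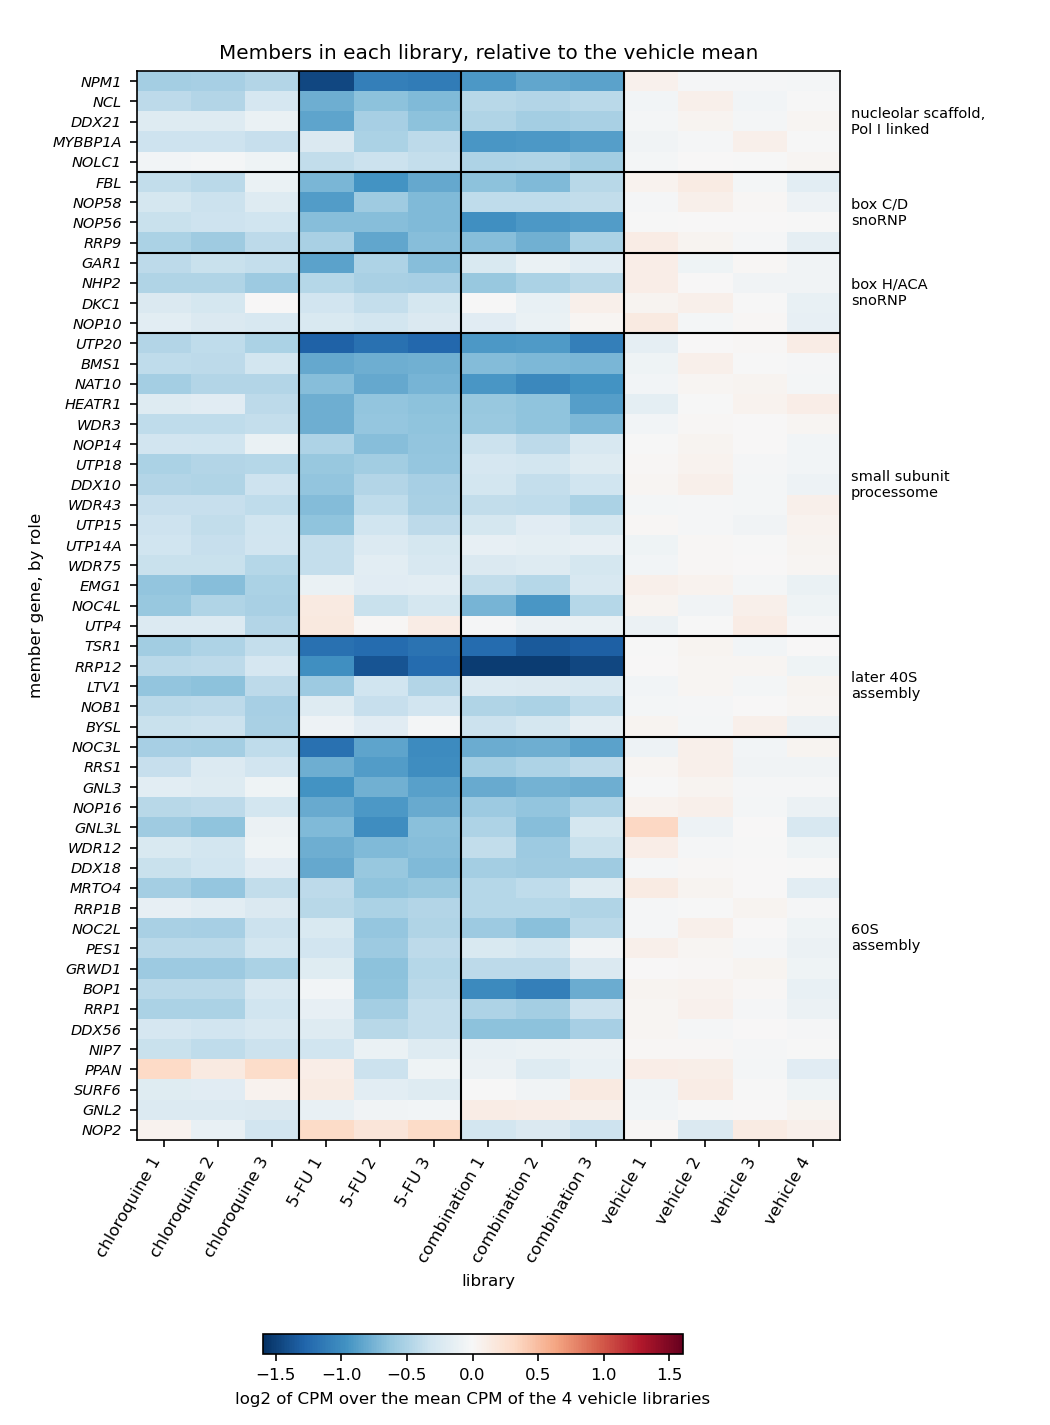
Each row is a gene, grouped by role and ordered by its 5-FU response, and each column a library, with chloroquine, 5-FU and combination to the left of vehicle. The colour is the log2 ratio of the library's CPM to the mean CPM of the 4 vehicle libraries. Treated libraries are mostly blue (lower), with RRP12 and TSR1 darkest in the combination and the pale GAR1, DKC1 and NOP10 rows near vehicle there.

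The median response varied from role to role. With 5-FU the median log2 fold change was -0.71 over 4 box C/D snoRNP proteins, -0.67 over 5 nucleolar scaffold or polymerase I linked proteins and -0.54 over 15 processome proteins. It was -0.45 over 5 later 40S factors, -0.44 over 20 factors of 60S assembly and -0.41 over 4 box H/ACA snoRNP proteins. With chloroquine the same medians spanned only -0.46 (later 40S factors) to -0.31 (box H/ACA). With the combination they spanned -0.63 (box C/D) to -0.13 (box H/ACA). These medians are descriptions over 4 to 20 genes, and the differences between roles were not tested.

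**Figure D2:**
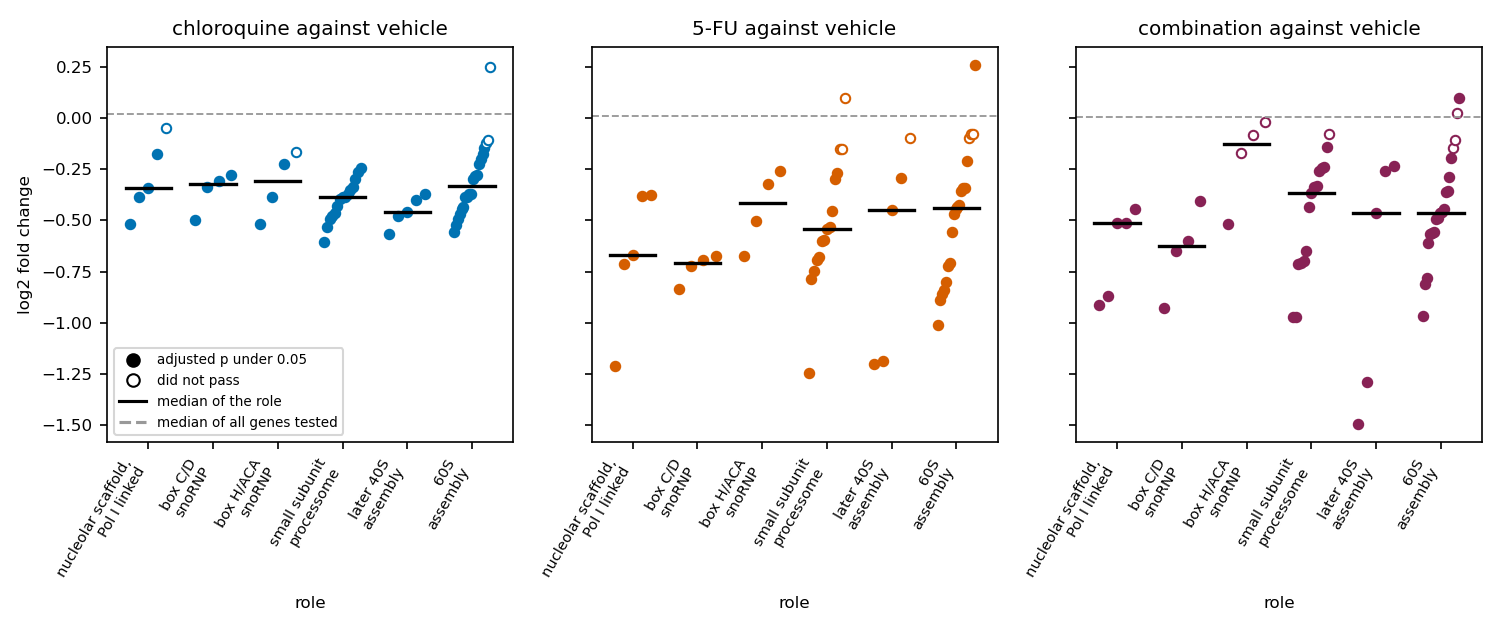
Each point is a gene's log2 fold change against vehicle (vertical axis) by role (horizontal axis), in one panel per treatment. Filled points passed an adjusted p of 0.05, bars mark each role's median and the dashed line the median of all genes tested. The box H/ACA bar sits at -0.13 in the combination panel, the highest of the 6 roles there.

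The promoters of these genes often carried the letters CACGTG, the E-box that MYC and MAX, activators of ribosome synthesis genes, are known to bind. RefSeq promoters on GRCh38.p14, reaching 250 bases before to 50 after the start, were matched for 46 of the 53 genes. The E-box, which reads the same on both strands, was present in 19 of the 46 (41.3%), against 8.88% of 15843 protein-coding promoters. Of the 21 E-boxes in these promoters, 17 began within 50 bases of the start, a count not made over all protein-coding promoters. In the 100 bases from 70 before to 30 after the start, 13 of 46 (28.3%) held one, against 4.09% of the protein-coding promoters. Among protein-coding promoters 1407 held an E-box in the whole window and 648 in these 100 bases. The stretches printed here are those 100 bases, with the E-box in capitals, for members from both ends of the response to 5-FU. UTP20, NOC3L, FBL and NAT10 fell strongly, UTP18 had the smallest p for the interaction of the drugs, UTP4 and GNL2 did not fall with 5-FU, and TSR1 fell strongly with no E-box. They were chosen with their values known.
UTP20 (chr12:101280035-101280134, + strand): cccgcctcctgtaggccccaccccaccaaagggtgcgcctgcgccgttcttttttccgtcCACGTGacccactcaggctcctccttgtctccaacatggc
NOC3L (chr10:94362910-94363009, - strand): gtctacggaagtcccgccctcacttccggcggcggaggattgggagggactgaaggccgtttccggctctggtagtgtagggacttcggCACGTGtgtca
FBL (chr19:39846350-39846449, - strand): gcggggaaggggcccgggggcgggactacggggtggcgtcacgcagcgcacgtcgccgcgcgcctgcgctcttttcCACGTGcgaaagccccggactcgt
NAT10 (chr11:34105559-34105658, + strand): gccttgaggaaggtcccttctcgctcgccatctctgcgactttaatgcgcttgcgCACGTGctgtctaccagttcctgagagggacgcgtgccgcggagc
UTP18 (chr17:51260476-51260575, + strand): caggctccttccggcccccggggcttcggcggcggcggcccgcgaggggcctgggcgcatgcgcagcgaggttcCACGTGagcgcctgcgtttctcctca
UTP4 (chr16:69132579-69132678, + strand): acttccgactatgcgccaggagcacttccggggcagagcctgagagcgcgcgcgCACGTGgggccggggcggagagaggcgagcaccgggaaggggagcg
GNL2 (chr1:37595908-37596007, - strand): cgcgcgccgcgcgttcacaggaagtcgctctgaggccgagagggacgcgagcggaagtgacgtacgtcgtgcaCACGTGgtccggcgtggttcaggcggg
TSR1 (chr17:2336428-2336527, - strand): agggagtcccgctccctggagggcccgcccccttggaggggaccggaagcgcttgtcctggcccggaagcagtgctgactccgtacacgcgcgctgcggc

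An E-box stood at nearly the same place in UTP20 and UTP4, which were picked from opposite ends of the 5-FU response. A link between the box and the response was not tested. The box began 10 bases before the start in UTP20, which had a log2 fold change of -1.25 with 5-FU, and 16 bases before it in UTP4, which had 0.10 and did not pass. With 5-FU the median was -0.45 over the 19 genes with an E-box and -0.54 over the 27 without. With the combination it was -0.29 with an E-box and -0.49 without, and with chloroquine -0.39 for both sets. The letters CCGGAAG, a core bound by ETS factors, were also in 19 of 46 promoters (41.3%, against 14.2% of protein-coding promoters, both strands). AAGATGGC, a core bound by YY1, was in 3 (6.52%, against 3.91%), and TATAAA was in 2 (4.35%, against 9.63%). A match is a description of these letters and not evidence of binding.

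**Figure D3:**
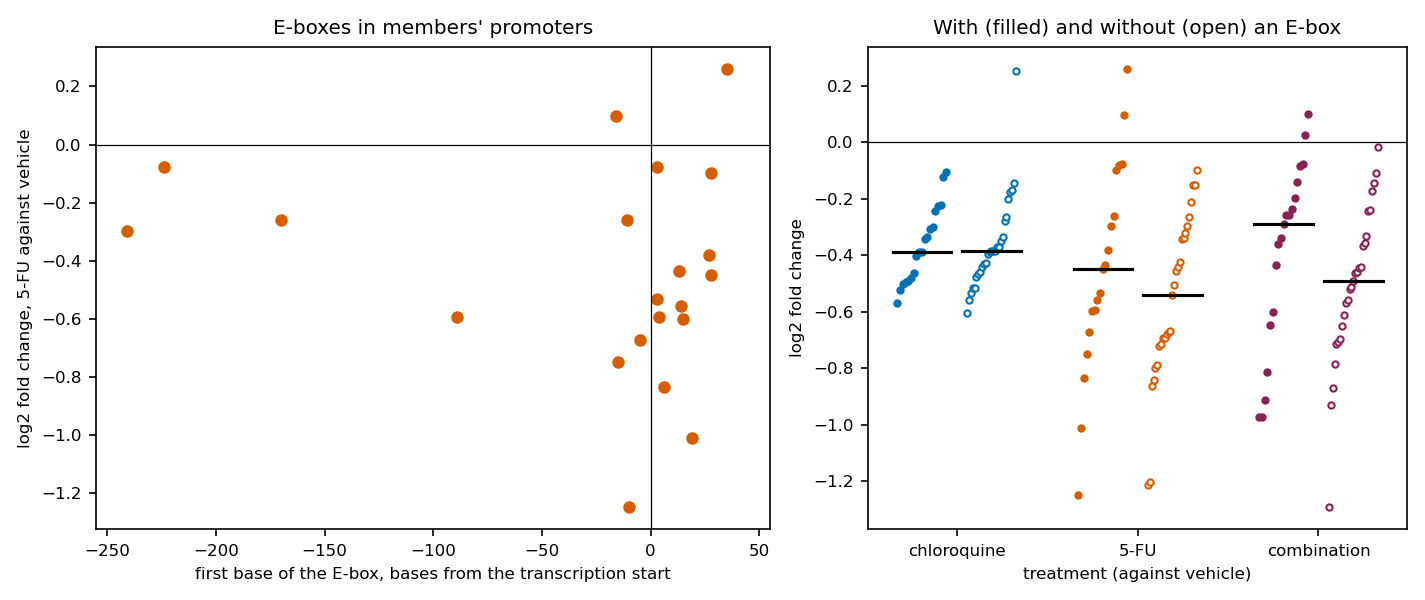
The left panel plots each E-box by its distance from the transcription start in bases (horizontal axis) and its gene's log2 fold change with 5-FU against vehicle (vertical axis). The right panel shows log2 fold changes with each treatment for the 19 genes with an E-box (filled) and the 27 without (open), with bars at the medians. Most boxes lie near the start (other promoters are not drawn), the 2 sets overlap over most of their range, and the genes above 0 with 5-FU, NOP2 and UTP4, hold a box.

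Transcripts of the nucleolar scaffold proteins NPM1 and NCL fell in every treatment and were lowest with 5-FU alone. NPM1, nucleophosmin, a nucleolar chaperone of ribosome assembly, had 856, 866 and 902 CPM in the chloroquine libraries, 455, 588 and 574 CPM with 5-FU, 663, 702 and 689.6 CPM with the combination and 1309, 1229, 1238 and 1228 CPM in vehicle. No treated library reached a vehicle library, and the 3 combination libraries lay above the 3 with 5-FU and below the 3 with chloroquine. NPM1 fell with 5-FU (log2 fold change -1.21, SE 0.070, adjusted p = 4.25e-09), with chloroquine (log2 fold change -0.52, SE 0.068, adjusted p = 4.67e-05) and with the combination (log2 fold change -0.87, SE 0.069, adjusted p = 1.17e-07). NCL, nucleolin, which binds nascent pre-rRNA, had 1852, 1794 and 2067 CPM with chloroquine, 1449.8, 1574 and 1527 CPM with 5-FU, 1834, 1799 and 1848 CPM with the combination and 2416, 2635, 2415 and 2485 CPM in vehicle. Its combination libraries lay above all 5-FU libraries and among the chloroquine ones. NCL fell with 5-FU (log2 fold change -0.71, SE 0.048, adjusted p = 2.01e-08) and with chloroquine (log2 fold change -0.39, SE 0.048, adjusted p = 2.68e-05).

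NOLC1, a chaperone of snoRNPs in the nucleolus, moved in another order. It had 695, 699 and 680.5 CPM with chloroquine, 543, 561 and 547 CPM with 5-FU, 507, 512 and 484 CPM with the combination and 698, 719, 711 and 731 CPM in vehicle. The chloroquine libraries overlapped vehicle, whereas the combination libraries were the lowest of all, below those with 5-FU alone. NOLC1 fell with 5-FU (log2 fold change -0.38, SE 0.035, adjusted p = 4.11e-07) and with the combination (log2 fold change -0.51, SE 0.035, adjusted p = 2.70e-08), and its value with chloroquine was -0.05 (95% interval -0.12 to 0.03). MYBBP1A, a nucleolar protein that acts in polymerase I transcription and pre-rRNA processing, was also lowest in the combination, with log2 fold changes of -0.34 with chloroquine, -0.38 with 5-FU and -0.91 with both. DDX21, an RNA helicase that links polymerase I transcription to processing, was at -0.18 with chloroquine, -0.67 with 5-FU and -0.51 with both, and passed in all 3. Its call with chloroquine was lost in 9 of the alternatives tried, among them leaving out chloroquine 1, chloroquine 2, vehicle 2 or vehicle 4, with values of -0.23 to -0.08 over all the alternatives.

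Transcripts of the 4 box C/D snoRNP proteins chosen here (FBL, NOP56, NOP58 and RRP9) fell in all 3 treatments. FBL, NOP56 and NOP58 belong to the particles that bind guide RNAs and carry out 2'-O-methylation of rRNA. SNU13, another protein of these particles, was placed in the second list described below. Its mean was 134 CPM with chloroquine, 154 CPM with 5-FU, 146 CPM with the combination and 154 CPM in vehicle. The fall with 5-FU therefore did not extend to SNU13. FBL, fibrillarin, the methyltransferase itself, had 354, 344 and 431 CPM with chloroquine, 279, 240.0 and 264 CPM with 5-FU, 294, 284 and 341 CPM with the combination and 484, 509, 455 and 413 CPM in vehicle. The 5-FU libraries were the lowest, and chloroquine 3 stood within the vehicle range while the other two chloroquine libraries did not. FBL fell with 5-FU (log2 fold change -0.83, SE 0.093, adjusted p = 2.68e-06), with the combination (log2 fold change -0.60, SE 0.092, adjusted p = 6.76e-05) and with chloroquine (log2 fold change -0.31, SE 0.092, adjusted p = 0.0162). The chloroquine call was lost without chloroquine 1, chloroquine 2 or vehicle 2, and without the 5 libraries that carry COL1A2, with values of -0.43 to -0.17 over all the alternatives, and that of NOP58 was lost without those 5 libraries. RRP9, which binds the U3 snoRNA of the processome, had 45.1, 43.3 and 48.3 CPM with chloroquine, 44.9, 36.0 and 40.2 CPM with 5-FU, 40.2, 37.8 and 45.3 CPM with the combination and 70.0, 66.5, 63.3 and 58.0 CPM in vehicle. All its treated libraries lay below vehicle and overlapped one another. The core proteins NOP56 and NOP58 were alike with 5-FU, at -0.69 and -0.72, but with the combination NOP56 was at -0.93 and NOP58 at -0.40.

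Transcripts of the 4 box H/ACA snoRNP proteins, which pseudouridylate rRNA and also bind telomerase RNA, fell with 5-FU, but in the combination only NHP2 passed the test against vehicle. GAR1, a subunit that helps release the modified RNA, had 64.8, 67.8 and 66.2 CPM with chloroquine, 47.7, 61.2 and 53.9 CPM with 5-FU, 73.1, 80.2 and 77.2 CPM with the combination and 93.1, 82.5, 87.8 and 83.0 CPM in vehicle. The combination libraries were above all libraries of either single drug and just below those of vehicle. GAR1 fell with 5-FU (log2 fold change -0.67, SE 0.075, adjusted p = 2.61e-06) and with chloroquine (log2 fold change -0.39, SE 0.074, adjusted p = 9.23e-04), and its combination value was -0.17 (95% interval -0.33 to -0.02), with an adjusted p of 0.0591. That p was under 0.05 in 6 of the alternatives, among them leaving out 5-FU 1 or 5-FU 2, with values of -0.23 to -0.02 over all the alternatives.

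DKC1, dyskerin, the pseudouridine synthase of these particles, had 306, 297 and 361 CPM with chloroquine, 292, 277 and 296 CPM with 5-FU, 357, 331 and 379.9 CPM with the combination and 371, 382, 358 and 331 CPM in vehicle. The 5-FU libraries were below every vehicle library, and the combination libraries covered nearly the vehicle range. DKC1 fell with 5-FU (log2 fold change -0.32, SE 0.071, adjusted p = 0.00126), and the combination value was -0.02 (95% interval -0.17 to 0.13). NOP10, a small subunit that holds the enzyme in place, had 68.9, 65.7 and 64.5 CPM with chloroquine, 65.1, 62.9 and 66.2 CPM with 5-FU, 68.5, 71.6 and 79.4 CPM with the combination and 85.2, 75.7, 78.6 and 70.7 CPM in vehicle. Both single drugs lay below vehicle, and the combination overlapped it. NOP10 fell with 5-FU (-0.26) and chloroquine (-0.22), the chloroquine call being lost without vehicle 1 or chloroquine 2, and its combination value was -0.08 (95% interval -0.23 to 0.06). With scaling by library size alone the 5-FU calls of DKC1 and NOP10 were lost. NHP2, the fourth core protein, was at -0.52 with chloroquine, -0.50 with 5-FU and -0.52 with both.

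Of the 15 small subunit processome genes, 15 fell with chloroquine, 12 with 5-FU and 14 with the combination. UTP20, a large scaffold protein of the processome, had 70.9, 73.6 and 68.6 CPM with chloroquine, 39.7, 42.9 and 41.0 CPM with 5-FU, 51.8, 52.2 and 45.7 CPM with the combination and 88.7, 98.3, 99.0 and 106 CPM in vehicle. The groups did not overlap, and 5-FU was the lowest. UTP20 fell with 5-FU (log2 fold change -1.25, SE 0.068, adjusted p = 2.48e-09), with chloroquine (log2 fold change -0.46, SE 0.066, adjusted p = 8.07e-05) and with the combination (log2 fold change -0.97, SE 0.067, adjusted p = 2.92e-08). UTP18, of the UTP-B subcomplex, had 97.5, 100.3 and 101 CPM with chloroquine, 90.9, 94.3 and 90.7 CPM with 5-FU, 115, 113 and 120.3 CPM with the combination and 140.3, 144, 137 and 134 CPM in vehicle. The combination libraries lay between those of either single drug and vehicle, with no overlap. UTP18 fell with chloroquine (log2 fold change -0.48, SE 0.045, adjusted p = 2.63e-06), 5-FU (log2 fold change -0.59, SE 0.045, adjusted p = 6.01e-08) and the combination (log2 fold change -0.26, SE 0.045, adjusted p = 1.97e-04).

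UTP4, of the UTP-A subcomplex that loads first on the precursor, had 69.6, 70.1 and 58.6 CPM with chloroquine, 90.5, 82.5 and 88.4 CPM with 5-FU, 79.98, 76.0 and 75.6 CPM with the combination and 76.4, 81.3, 88.0 and 80.1 CPM in vehicle. Its chloroquine libraries were below vehicle, and those with 5-FU or both drugs overlapped it. UTP4 fell with chloroquine (log2 fold change -0.30, SE 0.069, adjusted p = 0.00340), with values of -0.49 to -0.20 over the alternatives, the lowest of them without the 5 libraries that carry COL1A2. Its 5-FU value was 0.10 (95% interval -0.05 to 0.24), which passed as a rise with scaling by library size alone and with the filter at 10 CPM. The other UTP-A genes passed in all 3 treatments, with 5-FU values of -0.46 for UTP15, -0.69 for HEATR1, -0.53 for WDR43 and -0.27 for WDR75. The chloroquine call of HEATR1 was lost without chloroquine 3, with values of -0.39 to -0.17 over all the alternatives. The GTPase BMS1 (-0.79), the 18S rRNA acetyltransferase NAT10 (-0.75) and the UTP-B protein WDR3 (-0.68) were among the lowest processome genes with 5-FU. EMG1, an 18S rRNA methyltransferase, was at -0.60 with chloroquine, the lowest of all 53 genes in that treatment, and at -0.15 with 5-FU, where it passed in 8 of the alternatives, among them the replicate block, but not as reported. NOC4L, the partner of NOP14, was at -0.53 with chloroquine, -0.15 with 5-FU, where it did not pass, and -0.70 with both, whereas NOP14 was at -0.24, -0.60 and -0.34 and passed in all 3. The chloroquine value of NOP14 was -0.13 and did not pass without the 5 libraries that carry COL1A2. NOC4L passed with 5-FU when 5-FU 1 was left out, with values of -0.32 to 0.04 over all the alternatives. UTP14A, which works with a helicase in late processome steps, was at -0.30 with 5-FU, and the helicase DDX10 at -0.54.

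The later 40S factors held the 2 genes that were lowest in the combination. TSR1, a GTPase-like protein that keeps the immature 40S subunit from joining translation, had 113, 117 and 126 CPM with chloroquine, 72, 70.0 and 72.8 CPM with 5-FU, 70.4, 64.9 and 66.7 CPM with the combination and 164, 170.4, 159.7 and 166 CPM in vehicle. The 5-FU and combination libraries overlapped and lay below all chloroquine libraries, which lay below vehicle. TSR1 fell with 5-FU (log2 fold change -1.20, SE 0.052, adjusted p = 2.57e-10), the combination (log2 fold change -1.29, SE 0.052, adjusted p = 1.77e-10) and chloroquine (log2 fold change -0.48, SE 0.051, adjusted p = 7.12e-06). RRP12, which takes part in export of pre-40S particles, was singled out after its values were seen. It had 108, 108 and 121 CPM with chloroquine, 73.9, 55.9 and 62.1 CPM with 5-FU, 50.9, 50.8 and 52.9 CPM with the combination and 146, 148, 149 and 138 CPM in vehicle. The 4 groups did not overlap, with the combination lowest (log2 fold change -1.50, SE 0.080, adjusted p = 2.47e-09 against vehicle), then 5-FU (log2 fold change -1.19, SE 0.079, adjusted p = 1.70e-08) and chloroquine (log2 fold change -0.37, SE 0.077, adjusted p = 0.00151).

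BYSL, bystin, needed for late pre-40S maturation, had 48.6, 48.9 and 43.4 CPM with chloroquine, 58.6, 54.8 and 60.6 CPM with 5-FU, 48.8, 51.1 and 56.2 CPM with the combination and 64.0, 60.5, 65.8 and 58.1 CPM in vehicle. The chloroquine libraries were mostly the lowest, and the 5-FU libraries overlapped vehicle. BYSL fell with chloroquine (log2 fold change -0.40, SE 0.068, adjusted p = 3.57e-04) and with the combination (log2 fold change -0.26, SE 0.067, adjusted p = 0.00483), and its 5-FU value was -0.10 (95% interval -0.24 to 0.04). Scaling by library size alone lost the combination calls of BYSL and of LTV1, a pre-40S assembly factor that was at -0.57 with chloroquine, -0.45 with 5-FU and -0.24 with both. NOB1, the endonuclease that makes the mature end of 18S rRNA, was at -0.46, -0.29 and -0.46 in the same order and passed in all 3.

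Of the 20 factors of 60S assembly, 17 fell with chloroquine, 16 with 5-FU and 16 with the combination. NOC3L, a nucleolar pre-60S protein, had 107, 106 and 117 CPM with chloroquine, 67.6, 85.8 and 76.8 CPM with 5-FU, 89.0, 90.0 and 85.2 CPM with the combination and 146, 164, 149.8 and 159 CPM in vehicle. All treated libraries were below vehicle, and the 5-FU and combination libraries overlapped. NOC3L fell with 5-FU (log2 fold change -1.01, SE 0.073, adjusted p = 3.80e-08), chloroquine (log2 fold change -0.49, SE 0.072, adjusted p = 1.05e-04) and the combination (log2 fold change -0.81, SE 0.073, adjusted p = 3.66e-07). NOP2, a 28S rRNA cytosine methyltransferase, was the only member that rose with 5-FU. It had 12.3, 10.9 and 9.55 CPM with chloroquine, 14.7, 13.5 and 14.6 CPM with 5-FU, 9.65, 10.1 and 9.43 CPM with the combination and 11.9, 10.1, 12.9 and 12.5 CPM in vehicle. The 5-FU libraries were above every other library, and the combination libraries reached only the lowest vehicle library. The rise with 5-FU (log2 fold change 0.26, SE 0.093, adjusted p = 0.0249) was lost without vehicle 2, 5-FU 1 or 5-FU 3, with values of 0.19 to 0.45 over all the alternatives. The fall with the combination (log2 fold change -0.29, SE 0.096, adjusted p = 0.0193) was lost without vehicle 3 or combination 3, under the replicate block, with the filter at 10 CPM and with scaling by library size alone. Of the exon bases of NOP2, 54.4% are shared on the same strand with another annotated gene, so its counts are uncertain.

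PES1, BOP1 and WDR12 form the PeBoW complex, which is needed for processing of the 32S precursor, and their transcripts did not keep one order. With 5-FU they were at -0.43, -0.35 and -0.72, with chloroquine at -0.39, -0.37 and -0.20, and with the combination at -0.20, -0.97 and -0.44. All 9 values passed. BOP1 had 143, 143 and 161 CPM with chloroquine, 187, 123 and 143 CPM with 5-FU, 94.8, 90.1 and 111 CPM with the combination and 198, 201, 196 and 177 CPM in vehicle. The 5-FU libraries were widely spread, with 5-FU 1 inside the vehicle range, and the call was lost without 5-FU 2 (-0.23) or 5-FU 3, the value being -0.54 without 5-FU 1. Its chloroquine call was lost without chloroquine 1 or chloroquine 2. The chloroquine call of WDR12 was lost without chloroquine 1, chloroquine 2, vehicle 1 or vehicle 3, with values of -0.28 to -0.10 over all the alternatives. Its value was -0.10 without the 5 libraries that carry COL1A2. The combination call of PES1 was lost without combination 1, combination 2, vehicle 1 or vehicle 2, with values of -0.27 to -0.05 over all the alternatives.

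Among the nucleolar GTPases of 60S assembly, GNL3 (nucleostemin) was at -0.86 and GNL3L at -0.80 with 5-FU, where both fell. GNL2, the third, was at -0.08 and did not pass. With chloroquine both also fell, GNL3 at -0.14 and GNL3L at -0.43. Without the 5 libraries that carry COL1A2, which leaves 1 chloroquine library, these chloroquine values were nearer 0, at -0.07 and -0.20. GNL2 had 160.4, 160.5 and 159.6 CPM with chloroquine, 172, 179 and 181 CPM with 5-FU, 202, 201 and 198 CPM with the combination and 181, 186, 188 and 192 CPM in vehicle. The combination libraries were the highest and the chloroquine libraries the lowest. The rise with the combination was small (log2 fold change 0.10, SE 0.040, adjusted p = 0.0422) and was lost when any 1 library of the combination, of chloroquine or of vehicle other than vehicle 4 was left out, without 5-FU 3, with DESeq2's size factors and under the replicate block, with values of 0.09 to 0.25 over all the alternatives. RRS1, which brings 5S rRNA into the particle, was at -0.30 with chloroquine, -0.89 with 5-FU and -0.49 with both. PPAN, a pre-60S processing factor, had values of 0.25, -0.10 and -0.14 in that order, and SURF6, a nucleolar matrix protein, had -0.10, -0.08 and 0.03. PPAN did not pass in any of these, though its chloroquine value passed in 10 of the alternatives, and 59.8% of its exon bases are shared with a read-through gene and its partner. The remaining members of this role, from NOP16 (-0.84) to NIP7 (-0.21), all fell with 5-FU.

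**Figure D4:**
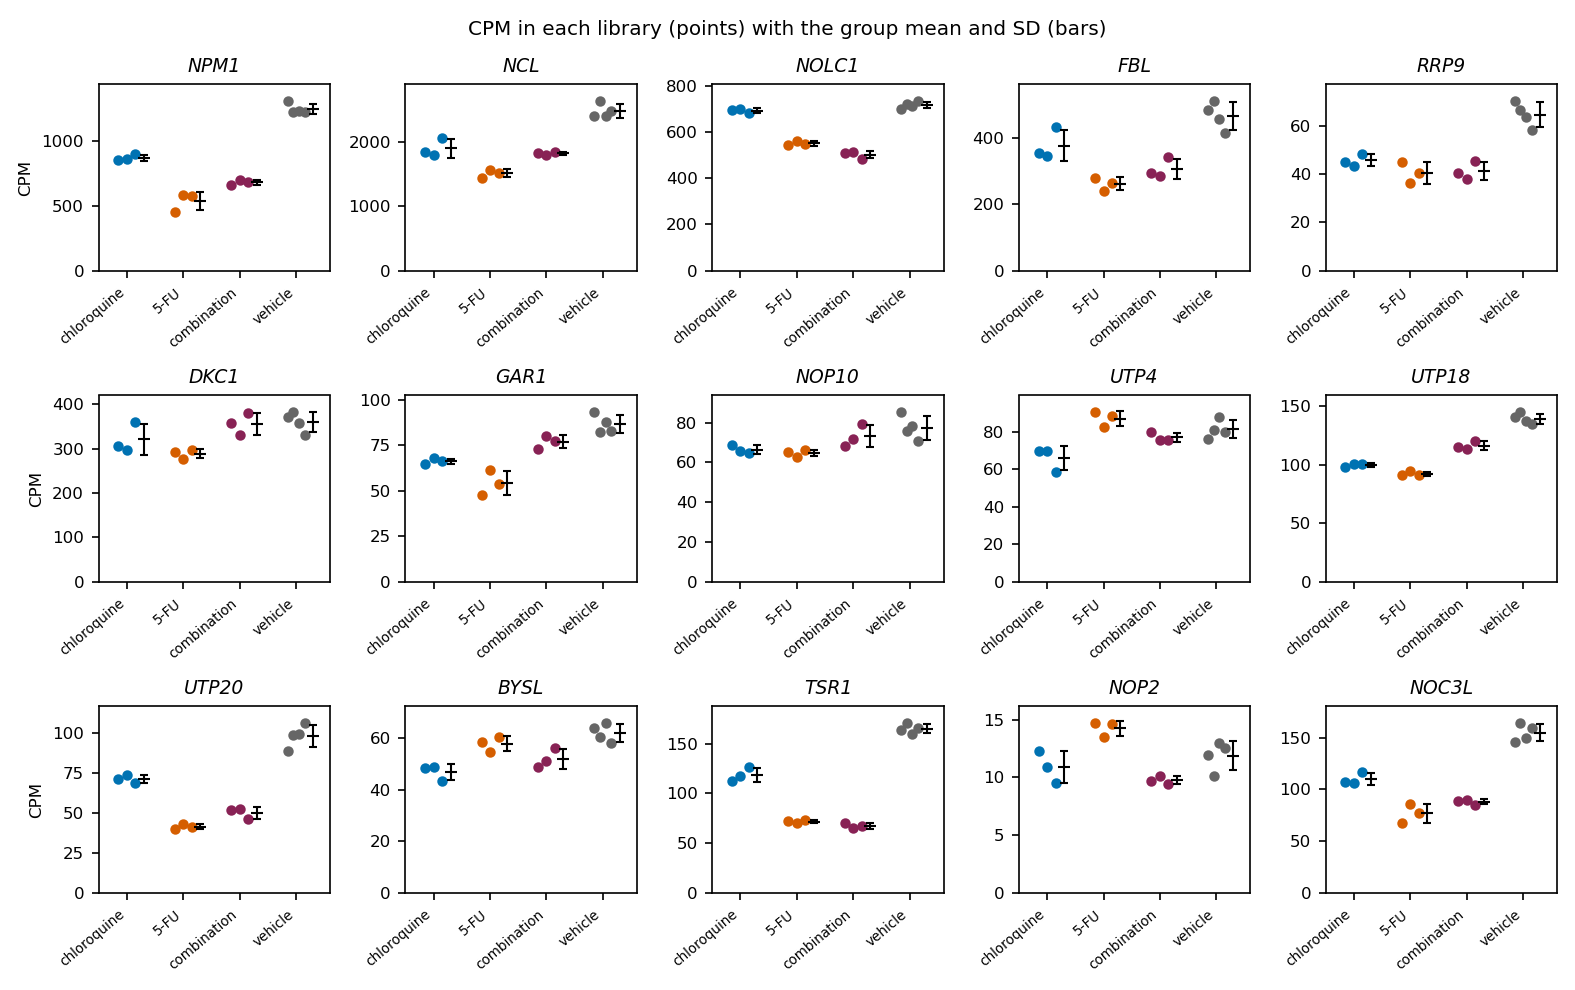
CPM (vertical axes, starting at 0) in each library for 15 members, with chloroquine, 5-FU, combination and vehicle from left to right. Points are libraries and the bars beside them the group mean and SD. NPM1, UTP20 and NOC3L are lowest with 5-FU, TSR1 is as low with both drugs, UTP18 and GAR1 lie between single drugs and vehicle in the combination, and NOP2 is highest with 5-FU.

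Chloroquine had a different effect on most of these genes when 5-FU was present. In cells that also received 5-FU, chloroquine raised 17 of the 53 (against 20.2% of all genes) and lowered 11 (against 18.3%), with a median log2 fold change of 0.10, against 0.02 over all genes. Without 5-FU it had lowered 48. Of those 48, 16 rose and 9 fell when chloroquine was added to 5-FU, and 23 did not pass. The 2 sets of fold changes come from different libraries, and over the 53 genes they had the same sign in 18 (Pearson's r = -0.005, Spearman's rho = 0.02, a description across genes, which share libraries). Neither this count nor the split of the 48 was worked out over all genes, so neither can be called particular to the 53. The 17 that rose included GAR1 (log2 fold change 0.50, SE 0.079, adjusted p = 2.07e-04), RRS1 (0.40), NPM1 (log2 fold change 0.34, SE 0.073, adjusted p = 0.00187), UTP18 (log2 fold change 0.34, SE 0.048, adjusted p = 9.05e-05), NCL (log2 fold change 0.27, SE 0.051, adjusted p = 8.79e-04), DKC1 (log2 fold change 0.30, SE 0.076, adjusted p = 0.00550) and UTP20 (log2 fold change 0.28, SE 0.072, adjusted p = 0.00759). The 11 that fell included BOP1 (log2 fold change -0.61, SE 0.12, adjusted p = 0.00123), NOP2 (log2 fold change -0.55, SE 0.10, adjusted p = 6.21e-04), NOC4L (-0.55), MYBBP1A (-0.53), RRP12 (-0.31, and -0.20 without 5-FU 1) and NOLC1 (-0.14). With 5-FU and combination libraries of the same number treated as pairs, in a fit of these 2 groups with a replicate block, 13 rose (against 16.6% of all genes) and 8 fell (against 18.9%), and NOLC1 was among the calls lost. Without the 5 libraries that carry COL1A2, 22 rose (against 18.9% of all genes) and 8 fell (against 17.6%).

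The difference between the 2 chloroquine effects, the interaction of the drugs, was tested directly. It passed with a value above 0 in 39 of the 53 genes (against 20.6% of all genes) and with one below 0 in 1 (against 19.3%), and 6 of the 53 values were below 0 whether they passed or not, with a median of 0.43, against -0.002 over all genes. A value above 0 means that the combination was less low than the sum of the 2 single effects on the log2 scale. The smallest p-values were those of UTP18 (0.82, SE 0.066, adjusted p = 8.05e-07), NCL (0.65, SE 0.070, adjusted p = 9.11e-06), NPM1 (0.86, SE 0.100, adjusted p = 1.75e-05) and GAR1 (0.89, SE 0.109, adjusted p = 2.73e-05). All 4 box H/ACA genes passed, at 0.47 for DKC1, 0.50 for NHP2, 0.89 for GAR1 and 0.40 for NOP10, as did 12 of the 15 processome genes and 3 of the 4 box C/D genes. The 1 that passed below 0 was NOP2 (-0.43, SE 0.138, adjusted p = 0.0239), a call lost without chloroquine 1, 5-FU 3, combination 1 or combination 3.

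The 13 genes that did not pass the interaction test had values between -0.30 and 0.32. For RRP12 the interaction was 0.06 (95% interval -0.18 to 0.31) and for NOC4L -0.01 (95% interval -0.39 to 0.36), and for NOP56 it was 0.10 (95% interval -0.02 to 0.21). For BOP1 it was -0.24 (95% interval -0.60 to 0.11) and for MYBBP1A -0.19 (95% interval -0.38 to -0.01), and MYBBP1A passed when 5-FU 2 was left out, with the filter at 10 CPM and with scaling by library size alone. Without the 5 libraries that carry COL1A2, 35 interactions passed above 0 (against 14.5% of all genes) and 0 below (against 13.4%). With scaling by library size alone 33 passed above 0 (against 12.2%) and 4 below (against 25.9%).

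**Figure D5:**
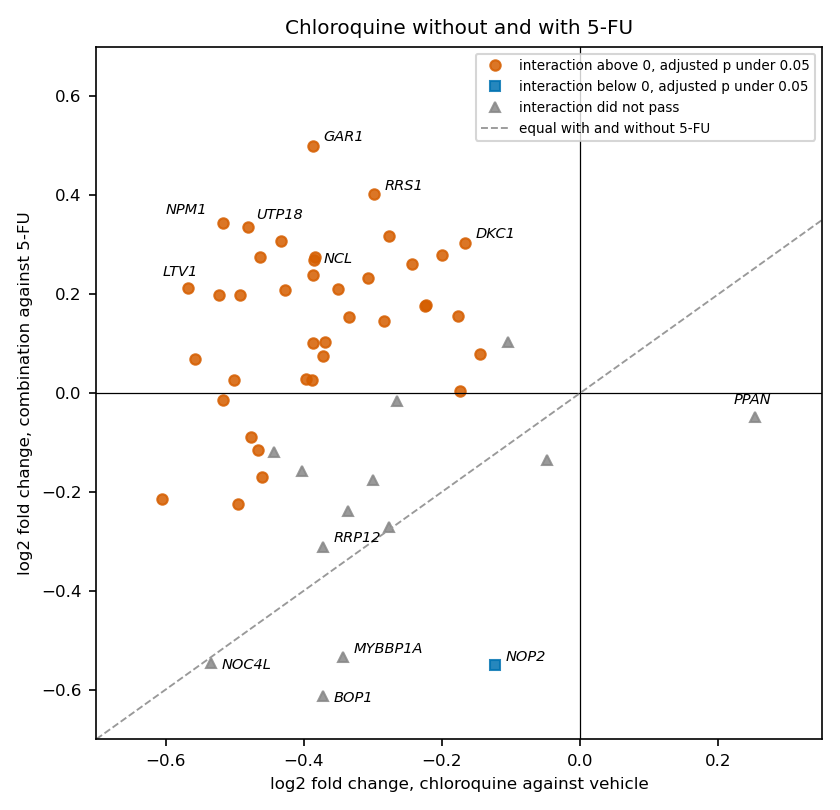
Each point is a gene, with its log2 fold change for chloroquine against vehicle on the horizontal axis and for the combination against 5-FU on the vertical axis. Shape and colour give the call of the interaction. Nearly all points lie left of 0, 34 of the 53 lie left of 0 and above 0 vertically, and BOP1, MYBBP1A, NOC4L and RRP12 lie low near or under the dashed line of equal effect.

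The same interaction can be read from the side of 5-FU. Added to chloroquine, 5-FU lowered 23 of the 53 (against 25.7% of all genes) and raised 9 (against 24.8%), with a median of -0.13, against -0.01 over all genes. Of the 45 that fell with 5-FU alone, 22 fell, 6 rose and 17 did not pass when it was added to chloroquine. The signs matched in 35 of 53 genes (Pearson's r = 0.57, Spearman's rho = 0.55, again across genes). This count and the split of the 45 were likewise not worked out over all genes. The lowest were RRP12 (log2 fold change -1.12, SE 0.084, adjusted p = 1.07e-07), TSR1 (log2 fold change -0.82, SE 0.055, adjusted p = 3.86e-08), GNL3 (-0.64) and BOP1 (-0.60). The highest was LTV1 (log2 fold change 0.33, SE 0.072, adjusted p = 0.00154), followed by GNL2 (0.32). Without the 5 libraries that carry COL1A2, 2 of the 53 rose (against 16.3% of all genes) and 21 fell (against 17.9%), and the calls of LTV1 (then 0.18), GAR1 (0.21 with all libraries) and UTP18 (0.22) were among those lost. The call of GAR1 was also lost without chloroquine 1, 2 or 3 and without combination 2 or 3. Scaling by library size alone gave 15 risen, near the share over all genes (28.4%), and 21 fallen (against 22.4%).

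A second list of 89 other ribosome assembly factors, all found and all tested, gave the wider pathway. With chloroquine 57 fell and 3 rose, where 19.1% of all genes fell and 20.3% rose. With 5-FU 58 fell and 5 rose (29.5% and 30.8% of all genes), and with the combination 52 fell and 9 rose (27.2% and 28.1%). Their median log2 fold changes were -0.30, -0.32 and -0.21 in that order, each nearer 0 than the median of the 53. The interaction passed above 0 in 56 and below 0 in 2 (20.6% and 19.3% of all genes). The 3 lowest among those called with the combination were DIMT1, the 18S rRNA dimethyltransferase, at -1.43, PWP2, of the UTP-B subcomplex, at -1.23, and LAS1L, which cleaves the spacer between rRNAs, at -1.01. PWP2 had 34.4, 35.8 and 34.4 CPM with chloroquine, 36.7, 32.5 and 37.4 CPM with 5-FU, 23.4, 23.1 and 23.7 CPM with the combination and 56.3, 55.7, 52.9 and 53.8 CPM in vehicle. Its single-drug libraries overlapped, and its combination libraries were below both.

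The 3 highest were RIOK3, a kinase associated with pre-40S particles, at 1.01, FCF1, a processome protein, at 0.41 and NSUN5, a 28S rRNA methyltransferase, at 0.35. RIOK3 had 86.5, 83.9 and 90.3 CPM with chloroquine, 131, 147 and 144 CPM with 5-FU, 164, 160.4 and 165 CPM with the combination and 82.7, 83.3, 78.0 and 79.8 CPM in vehicle. Its 5-FU and combination libraries were above all others. FCF1 had 63.3, 68.0 and 72.3 CPM with chloroquine, 75.4, 76.1 and 84.6 CPM with 5-FU, 113, 106 and 121 CPM with the combination and 93.3, 85.8, 81.0 and 81.5 CPM in vehicle. It was below vehicle with chloroquine and above every other library with both drugs.

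The 53 genes lie on 20 chromosomes in GENCODE 29. Among them 8 (NCL, NOP56, NOP58, DKC1, WDR43, TSR1, GNL3 and PPAN) hold 27 snoRNA genes on their own strand, and small RNAs of that kind guide rRNA modification. With 5-FU the median log2 fold change of these 8 hosts was -0.70 and that of the other 45 was -0.47. With chloroquine it was -0.31 for the hosts and -0.38 for the others, and with the combination -0.44 and -0.47. The difference was not tested.

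Some counts can be shared with near copies. NPM1 has 46 annotated pseudogene rows, which held 62.6% to 66.3% of the counts of gene and pseudogenes together, so that its own level is uncertain. Summed over gene and pseudogenes, NPM1 had log2 fold changes of -0.51 with chloroquine, -1.22 with 5-FU and -0.82 with the combination, and an interaction of 0.91, with every call as for the gene's own row. Pseudogene rows of NHP2 (14.9% to 19.0%), BMS1 (8.23% to 16.4%) and NOC2L (10.1% to 11.6%) held smaller shares, and no call of these 3 genes changed when they were summed. Of the exon bases of LTV1, 34.8% are shared with other genes on the same strand. For 6 genes (NHP2, HEATR1, EMG1, NOB1, TSR1 and NIP7) over 20% of exon bases lie opposite another gene, and no source used here says whether counting used the strand. Precursor rRNA was not analysed here. Of 533 rows named as ribosomal RNA, 508 were 5S pseudogenes and 0 were RNA45S, RNA18S or RNA28S, and together they held at most 654 counts in a library.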

How the data were processed

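RNA-seq libraries were made from total RNA with a directional kit, per the labels' protocols. The deposited table holds raw read counts per gene symbol for 13 libraries, and these counts were used as the authors deposited them. The submitters' processing notes name DESeq and the mouse build GRCm38, although the gene symbols are human, so no coordinates were taken from the files. The aligner, counter and strand setting were not given in the sources used here.

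Genes were kept by edgeR's filterByExpr, scaled by TMM and fitted with group means over all 13 libraries (edgeR 4.0.16, R 4.3.3, quasi-likelihood F test). P-values were adjusted by Benjamini and Hochberg over all 19514 genes tested, with calls at an adjusted p under 0.05. The standard error is the log2 fold change divided by the root of F. The interaction is the combination minus 5-FU, minus chloroquine minus vehicle. The fit was tested on simulated data in which few genes changed, by the same folds in each treated group. Far more genes were called in the real data, so the simulation cannot speak for the scaling there. No 2 libraries of a group agreed within sampling noise (chi-square per degree of freedom 1.60 to 21.1).

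The 53 members, the second list, the roles and the markers were chosen with earlier results of these data known. Values in every library were given for NPM1, NCL, FBL and DKC1, for the lowest and highest member of each role with 5-FU, for the 4 smallest interaction p-values and for any member that rose by 0.5 or more (0 did). Of the second list, the 3 lowest and 3 highest called with the combination were named. RRP12, BOP1 and GNL2 were added after their values were seen.

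Replicate numbers come from the labels. Same-numbered 5-FU and combination libraries had positive residual correlations (r = 0.169, 0.674 and 0.162 for numbers 1, 2 and 3). Every other pair of groups had at least 1 negative r between same-numbered libraries. Differently numbered libraries also correlated, with r = 0.537 for 5-FU 1 and combination 3 and 0.379 for 5-FU 3 and combination 1. Both libraries numbered 2 carry COL1A2. These values cannot show whether the numbers mark pairs. Pairing was therefore only an alternative, and the reported fit had no block. Alternatives were DESeq2 1.42.0, limma-voom (limma 3.58.1), other scalings and filters, only the groups compared, the replicate block, the COL1A2 libraries left out or fitted as a term, and each library left out. Counts of NPM1, NHP2, BMS1 and NOC2L with their pseudogenes were an alternative chosen after seeing the data. Promoters are RefSeq's (GRCh38.p14), and annotation is GENCODE 29. Figures were drawn with matplotlib 3.10.9.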

Additional observations from a re-analysis of the deposited data

Results flagged for a closer look

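The effect of chloroquine differed between cells without and with 5-FU in 40 of the 53 genes, by the interaction test across all genes. The interaction was above 0 in 39 (against 20.6% of all genes) and below 0 in 1 (against 19.3%). The value for each is the log2 fold change of the combination against 5-FU minus that of chloroquine against vehicle. Among scaffold and polymerase I linked genes, the interaction was 0.86 for NPM1, 0.65 for NCL and 0.33 for DDX21. Among box C/D genes, the interaction was 0.59 for NOP58, 0.54 for FBL and 0.53 for RRP9. Among box H/ACA genes, the interaction was 0.89 for GAR1, 0.50 for NHP2, 0.47 for DKC1 and 0.40 for NOP10. Among processome genes, the interaction was 0.82 for UTP18, 0.74 for UTP20, 0.64 for DDX10, 0.56 for UTP15, 0.51 for NOP14, 0.49 for UTP14A and 0.49 for WDR43. In the same role, the interaction was 0.45 for BMS1, 0.42 for WDR3, 0.41 for WDR75, 0.39 for EMG1 and 0.27 for NAT10. Among later 40S factors, the interaction was 0.78 for LTV1, 0.39 for TSR1 and 0.29 for NOB1. Among 60S assembly factors, the interaction was 0.74 for GNL3L, 0.72 for MRTO4, 0.70 for RRS1, 0.69 for NOC3L, 0.66 for NOP16, 0.63 for PES1 and 0.63 for GRWD1. In the same role, the interaction was 0.48 for WDR12, 0.47 for NIP7, 0.43 for DDX18, 0.40 for GNL2, 0.35 for NOC2L, 0.22 for GNL3 and 0.18 for RRP1B. In the same role, the interaction was -0.43 for NOP2.

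In 2 of the 53 genes 1 vehicle library stood apart from the other 3, by the gap to the nearest library over the whole range of the group. For NPM1 the gap took 0.873 of the range, with 1309, 1229, 1238 and 1228 CPM in vehicle 1 to 4. For WDR43 the gap took 0.901 of the range, with 224, 225, 225 and 243 CPM in vehicle 1 to 4. Chance flags about 1 in 20 groups. No explanation was tested.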

How the results depend on the processing

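The number of members called stayed within 1.5 times the reported count in every alternative, and 35 of 48 calls with chloroquine, 37 of 46 with 5-FU, 37 of 46 with the combination, 19 of 28 between combination and 5-FU, 20 of 32 between combination and chloroquine and 32 of 40 interactions were kept in all of them. Scaling by library size alone moved the median of all genes against vehicle to 0.12 with chloroquine, 0.20 with 5-FU and 0.15 with the combination. It raised the share of all genes that rose to 27.9%, 42.5% and 38.0%, with 12.4%, 18.8% and 18.8% fallen, in that order. Of the 53 members, 38, 37 and 37 then fell and 1, 3 and 1 rose. The members' median was then -0.28 with chloroquine, -0.34 with 5-FU, -0.32 with the combination, 0.0563 between combination and 5-FU, -0.0733 between combination and chloroquine and 0.29 for the interaction. Under this scaling UTP14A with the combination, a fall as reported, was at 0.00665, and GNL2 with 5-FU, not called as reported, passed at 0.12. Values near 0 of other genes that had not passed, such as that of BYSL with 5-FU, also changed sign. A filter at 10 CPM in 3 libraries, which left 11044 genes tested and all 53 members, gave medians of -0.32 with chloroquine, -0.43 with 5-FU, -0.40 with the combination and 0.34 for the interaction. Without the 5 libraries that carry COL1A2 the median was -0.58 with 5-FU and -0.18 between combination and chloroquine. Leaving out 1 library at a time gave medians of -0.160 to -0.0508 between combination and chloroquine, highest without combination 2, and of 0.42 to 0.48 for the interaction, highest without chloroquine 3. The cause was not tested.

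With the replicate block over all groups, 47 members fell and 0 rose with chloroquine (18.6% and 20.3% of all genes). With 5-FU 46 fell and 1 rose (28.7% and 29.7%), and with the combination 43 fell and 0 rose (26.1% and 26.8%). Between combination and 5-FU 10 fell and 20 rose (18.2% and 20.1%). Between combination and chloroquine 23 fell and 10 rose (26.1% and 25.0%). The interaction passed below 0 in 1 and above 0 in 39 (19.5% and 20.1%). In the fit of 5-FU and combination libraries alone, the replicate block gave 8 fallen and 13 risen (18.9% and 16.6% of all genes). Library depth of 17834539 counts or more left no member untested, and 3 or 4 libraries a group limit the precision of each fold change.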
